A study of Mus musculus with 2 samples.

Results

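Fas, Fasl, Cflar, Bcl2, Bcl2l11 and Mcl1 are genes of the death receptor and BCL2 family routes to apoptosis in T cells. They were taken by name from a single-cell table of colonic CD4+ T cells, and all 6 were among its 11971 genes. Each was read as unique molecular identifiers (UMIs, which count single captured transcripts), summed over the cells of a mouse or over the cells of 1 cluster of a mouse. The members had 4022 (Fas), 15337 (Fasl), 5801 (Cflar), 3739 (Bcl2), 7276 (Bcl2l11) and 24532 (Mcl1) UMIs in 18860 cells.

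The study used transfer colitis, in which donor CD4+ T cells given to mice without lymphocytes of their own inflame the colon. Mice labelled WT were Rag-/- recipients of wild-type CD4+ T cells, described as naive or as CD45RBhigh and CD25-. Mice labelled KO were Rag-/- recipients of CD4+ T cells deficient in BCL-6, a transcriptional repressor. Colonic TCRb+CD4+ cells were sorted from 6 KO-labelled and 6 WT-labelled mice, marked mouse by mouse with hashtag antibodies, and read together in 1 library prepared from the 5′ end of transcripts. All 12 mice were thus Rag-/- hosts, and the genotypes name the transferred cells. Which part of Bcl6 was removed, in which cells and by which Cre is not stated, nor whether the KO cells were sorted as the WT cells were, nor how many donors were used. Bcl6 itself went against the labels: it had 65.8 to 91.3 CPM (a gene's UMIs relative to all UMIs of the sum, scaled to a common total) in the 6 KO-labelled mice and 48.4 to 69.6 CPM in the 6 WT-labelled mice, a log2 fold change of 0.48 ± 0.10 (SE, edgeR adjusted p = 0.00398). Reads from the 5′ end can lie outside a deleted part, so these UMIs check no deletion, and every direction below, for each gene, is that of the mice as labelled.

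Fas is a death receptor on the cell surface, and its ligand, made from Fasl by activated T cells, brings receptors together and recruits caspase 8. The protein made from Cflar, known as c-FLIP, sits in the same complex and restrains caspase 8. A separate route runs through mitochondria, where BCL2 and MCL1 hold back the pore-forming proteins BAX and BAK, and BIM, the product of Bcl2l11, binds and neutralises BCL2 and MCL1. In T cells the Fas route is known for the removal of repeatedly stimulated cells, and BIM for death when survival cytokines run out.

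Between 1409 and 1736 cells were read per mouse, with 4252124 to 5523025 UMIs. Clusters are the authors': 5 carry names (recirculating, cytotoxic, Th17, cycling and regulatory cells), and those numbered 1 and 3, labelled no further than CD4, appear here as unnamed 1 and unnamed 3. Of 8 T cell markers 8 were in the table, and their summed level was 4932 to 5878 CPM in KO-labelled and 4745 to 5383 CPM in WT-labelled mice. Lists of B and plasma, myeloid, epithelial, NK and mast cell markers had 12 of 24 genes in the table, and no list passed 27.3 CPM in any mouse. The ranges did not overlap for B and plasma cell markers (2 of 7 genes, 1.65 to 10.2 CPM in KO-labelled and 13.04 to 27.3 CPM in WT-labelled mice). They overlapped for epithelial markers (4 of 5 genes, 5.71 to 10.9 against 9.68 to 23.5 CPM), NK cell markers (1 of 3 genes, 0.428 to 2.74 against 2.26 to 6.25 CPM), myeloid markers (4 of 7 genes, 3.26 to 7.66 against 5.25 to 8.82 CPM) and mast cell markers (1 of 2 genes, 3.98 to 9.63 against 3.58 to 10.2 CPM). Genes within a list could go opposite ways. Counting UMIs of all KO-labelled against all WT-labelled mice, Igkc stood at 44 against 536, but Cd79b at 84 against 73. Among epithelial genes, Krt18 (107 against 409) and Muc2 (12 against 24) were lower, while Epcam (98 against 43) and Krt8 (37 against 26) were higher. A gap in these 2 sums is therefore not a measure of cell type content. The part of the marker lists in the results below was not tested.

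The DNA before the starts of Fas and Bcl2l11 is shown because these were the members that differed between the genotypes over all cells. Sequences are from RefSeq on GRCm38.p6, plus strand, 5′ to 3′, and end at the base before the start of transcription. Capitals in Fas mark a match to the STAT half-site pair TTCNNNGAA, and capitals in Bcl2l11 mark, in order, matches to the FOXO letters GTAAACA and to a loose form of the NF-kB site (3 bases G, any 2 bases, 2 bases T, any 1 base, 2 bases C).
Fas, chr19:34290409-34290658: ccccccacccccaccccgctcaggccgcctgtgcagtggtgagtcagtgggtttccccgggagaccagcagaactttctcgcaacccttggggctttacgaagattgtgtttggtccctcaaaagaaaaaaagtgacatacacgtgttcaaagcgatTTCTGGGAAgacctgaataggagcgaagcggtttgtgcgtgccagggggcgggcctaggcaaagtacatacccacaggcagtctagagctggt
Bcl2l11, chr2:128125788-128126037: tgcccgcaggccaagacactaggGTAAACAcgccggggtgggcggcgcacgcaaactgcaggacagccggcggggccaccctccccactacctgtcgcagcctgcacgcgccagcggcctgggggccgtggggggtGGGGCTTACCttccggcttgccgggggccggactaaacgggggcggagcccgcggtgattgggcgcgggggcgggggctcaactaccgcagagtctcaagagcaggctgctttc

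Motifs were searched on both strands from 250 bases before to 50 bases after each start, in 7 windows for the 6 members, of which Bcl2l11 has 2 starts. The STAT letters began 93 bases before the start of Fas and are held by 8.30% of all 32851 promoters. The FOXO letters began 227 bases before the start of Bcl2l11 and are held by 3.65%. The loose NF-kB letters began 114 bases before it and are held by 4.79%. A stricter NF-kB form, with T as the base left free, was in Mcl1 alone among the members, 28 bases before its start, and in 1.63% of promoters; every stricter match is also a loose one. The letters TTCCTNGAA, taken for BCL6 and themselves a case of the STAT letters, were in none of the 7 windows and in 1.59% of all promoters. The patterns shown were settled after matches in these genes had been seen, and a match is a description of the letters only.

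Over all cells, Fas was lower in KO-labelled mice and Bcl2l11 was higher, and neither overlapped between the genotypes. The share of all genes without overlap was not counted, over all cells or in any cluster, so overlap is given throughout as a description only. Fas, the death receptor, had 41.3, 40.7, 48.2, 57.7, 56.97 and 53.96 CPM in the KO-labelled mice, in the order of their numbers, while the WT-labelled mice had 88.8, 98.7, 96.7, 93.9, 93.02 and 59.8 CPM. WT-labelled mouse 6 stood apart from the other WT-labelled mice and was still above every KO-labelled mouse. The mean was 49.8 ± 7.61 against 88.5 ± 14.5 CPM (SD, n = 6 mice each). The log2 fold change, KO-labelled minus WT-labelled, was -0.87 ± 0.12 (SE, adjusted p = 0.000145 by edgeR's quasi-likelihood test with Benjamini-Hochberg adjustment over 9861 genes).

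Bcl2l11, which encodes the killer protein BIM, had 153, 174, 156, 140.4, 160.04 and 158 CPM in the KO-labelled mice, and the WT-labelled mice had 87.1, 105, 89.9, 108, 93.02 and 102 CPM. The lowest KO-labelled mouse was above the highest WT-labelled mouse. The mean was 157 ± 10.9 against 97.5 ± 8.59 CPM, a log2 fold change of 0.65 ± 0.07 (edgeR adjusted p = 1.27e-05). Among all genes tested, 14.2% were called at an adjusted p under 0.05, 7.04% higher and 7.21% lower in KO-labelled mice. Of the members, 2 of 6 were called, 1 in each direction, and the members' median log2 fold change was 0.07 against -0.00022 over all genes.

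The other 4 members overlapped between the genotypes and did not pass. Fasl, the ligand, ranged from 213 to 383 CPM with a median of 306 CPM in KO-labelled mice, and from 213 to 253 CPM with a median of 243 CPM in WT-labelled mice. In 5 of 6 KO-labelled mice it was above every WT-labelled mouse, and KO-labelled mouse 6 was the exception. Its log2 fold change was 0.32 ± 0.10 (edgeR adjusted p = 0.0535), and without KO-labelled mouse 6 it was 0.40 (adjusted p = 0.00188); over its 19 alternatives the adjusted p ran from 0.00188 to 0.293.

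Cflar, the caspase 8 inhibitor, ranged from 83.4 to 112 CPM in KO-labelled and from 89.7 to 126 CPM in WT-labelled mice, a log2 fold change of -0.16 ± 0.10 (edgeR adjusted p = 0.287). Bcl2 ranged from 47.8 to 78.7 CPM in KO-labelled and from 52.3 to 70.0 CPM in WT-labelled mice, at 0.15 ± 0.11 (adjusted p = 0.414). In 4 of 6 KO-labelled mice Bcl2 was above every WT-labelled mouse. KO-labelled mouse 6 was the lowest for Bcl2 too, and without it the difference passed, at 0.24 (adjusted p = 0.0375, the lowest of its 19 alternatives, which reached 0.782). Mcl1 ranged from 407 to 483 CPM in KO-labelled and from 410 to 435 CPM in WT-labelled mice, at -0.0035 ± 0.05 (adjusted p = 0.978).

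**Figure D1:**
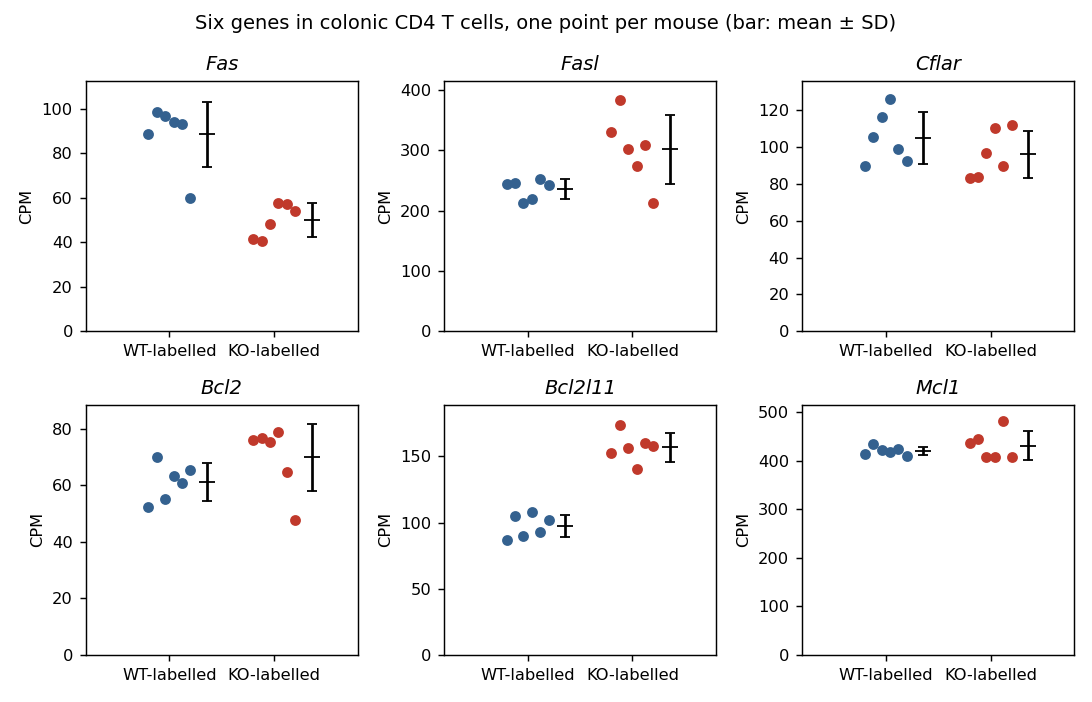
Level of each gene summed over all cells of a mouse, in CPM (y axis, from 0), for 6 WT-labelled (blue) and 6 KO-labelled (red) mice, with mean ± SD in black. Fas and Bcl2l11 are the panels without overlap: every red point lies below the blue ones for Fas and above them for Bcl2l11.

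A sum over all cells also carries the mix of clusters, which differed between the genotypes, so fewer cells of a high cluster and less RNA per cell cannot be told apart in it. Cytotoxic cells made up 3.11% to 15.3% of the cells of KO-labelled and 25.9% to 44.4% of those of WT-labelled mice. Cells of unnamed 1 made up 16.5% to 41.6% and 6.31% to 11.6%. KO-labelled mouse 6, the lowest for Fasl and Bcl2, had 16.5% unnamed 1 cells, where the other KO-labelled mice had 31.3% to 41.6%. It had 40.0% recirculating cells, where the others had 6.83% to 25.4%. The part of this mix in the fits without mouse 6 was not tested. KO-labelled mice 1 and 2 stood apart, with 4.02% and 3.11% cytotoxic and 8.86% and 6.83% recirculating cells, where the other 4 KO-labelled mice had at least 8.87% and 18.8%. Without both, Fas was at -0.74 (edgeR adjusted p = 0.00107) and Bcl2l11 at 0.62 (adjusted p = 7.1e-05). Clusters were also weighted alike in all mice, each by its share of the cells of all mice together. The UMIs of each cluster were rescaled for this, so the fit took fractional values in place of counts. Its adjusted p do not allow for the rescaling of small sums. The edgeR log2 fold change of Fas was then -0.88 (adjusted p = 2.38e-05) and that of Bcl2l11 was 0.37 (adjusted p = 0.0041), smaller than 0.65 but still past the threshold. In that fit Fasl was at 0.17 (adjusted p = 0.182), Bcl2 at -0.11 (adjusted p = 0.586), Cflar at -0.16 (adjusted p = 0.370) and Mcl1 at -0.13 (adjusted p = 0.0426), so that Mcl1 passed and Bcl2 turned direction. The ratio of Bcl2l11 to Bcl2 UMIs in a mouse was 1.78 to 3.31 in KO-labelled and 1.50 to 1.70 in WT-labelled mice. The ratio of Bcl2l11 to Mcl1 UMIs was 0.332 to 0.391 and 0.210 to 0.257. Neither ratio overlapped over all cells, and neither was tested. Within clusters the Bcl2l11 to Bcl2 ranges overlapped in every cluster, as in recirculating cells at 1.30 to 2.40 against 1.33 to 1.77. The Bcl2l11 to Mcl1 ranges overlapped in unnamed 1, cytotoxic, Th17 and regulatory cells. They did not overlap in recirculating, unnamed 3 and cycling cells.

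Within clusters, Fas was lower in KO-labelled mice in 6 of 7 clusters, and its fitted change was below 0 in all 7. The fall was 1.43 ± 0.23 on the log2 scale in unnamed 3 (34.2 ± 13.3 against 81.9 ± 22.4 CPM, edgeR adjusted p = 0.000116) and 1.10 ± 0.19 in cytotoxic cells (50.01 ± 17.5 against 115 ± 28.4 CPM, adjusted p = 0.00101). Cytotoxic cells held only 113 Fas UMIs in 818 cells of KO-labelled mice, against 937 in 3037 cells of WT-labelled ones. Of the 113, KO-labelled mouse 1 held 7 and KO-labelled mouse 2 held 2. The highest KO-labelled mouse reached 70.6 CPM in cytotoxic cells and the lowest WT-labelled mouse, number 6, was at 67.2 CPM, so the groups overlapped there by this pair.

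In cycling cells Fas fell by 0.91 ± 0.21 on the log2 scale (edgeR adjusted p = 0.00832), in unnamed 1 by 0.73 ± 0.15 (adjusted p = 0.00359), in recirculating cells by 0.63 ± 0.15 (adjusted p = 0.00757) and in Th17 cells by 0.62 ± 0.17 (adjusted p = 0.0297). The groups did not overlap in unnamed 1 and unnamed 3 and overlapped in the other clusters. The Th17 call was lost without KO-labelled mouse 1, 3, 4, 5 or 6 and without WT-labelled mouse 1, 4 or 5, each left out alone (adjusted p from 0.0507 to 0.0766). In regulatory cells, with 5 KO-labelled and 3 WT-labelled mice of at least 20 cells, Fas was at 87.6 ± 41.7 against 106 ± 8.48 CPM and did not pass (log2 fold change -0.21 ± 0.39, adjusted p = 0.907). WT-labelled mouse 6 had the lowest Fas of its group in 6 of 7 clusters.

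Bcl2l11 had a fitted change above 0 in all 6 clusters where it was tested and was called in 3. In cycling cells it stood at 95.8 ± 13.8 against 47.8 ± 15.4 CPM (log2 fold change 0.92 ± 0.17, edgeR adjusted p = 0.00111), in unnamed 3 at 180.3 ± 18.2 against 113 ± 23.5 CPM (0.64 ± 0.12, adjusted p = 0.000966) and in recirculating cells at 121 ± 21.3 against 90.1 ± 7.30 CPM (0.35 ± 0.09, adjusted p = 0.0217). The groups did not overlap in any of these 3 clusters. In recirculating cells the call was lost without KO-labelled mouse 4 or 6 or WT-labelled mouse 1 (adjusted p from 0.0572 to 0.0767). The change was 0.42 ± 0.14 in cytotoxic cells, 0.33 ± 0.15 in Th17 cells and 0.17 ± 0.13 in unnamed 1, and these did not pass (adjusted p of 0.121, 0.275 and 0.582). Without KO-labelled mice 1 and 2 together, all 6 cluster calls of Fas and all 3 of Bcl2l11 were kept. With at most 34 UMIs per genotype in regulatory cells, Bcl2l11, Fasl and Bcl2 were not tested there.

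The other members passed in 1 cluster each, and these calls lay near the threshold. Fasl was higher in unnamed 3, at 377 ± 70.2 against 269 ± 49.7 CPM (log2 fold change 0.44 ± 0.12, edgeR adjusted p = 0.0238). That call was lost without KO-labelled mouse 1, 2 or 5, without WT-labelled mouse 1, 2, 3 or 5 (log2 fold change 0.36 to 0.42, adjusted p from 0.0544 to 0.0760), and with the DESeq2 test (adjusted p = 0.0664). Cflar was lower in recirculating cells, at 94.7 ± 12.5 against 120 ± 12.4 CPM (-0.35 ± 0.09, adjusted p = 0.0206), and was no longer called without KO-labelled mouse 1, 3 or 5 or WT-labelled mouse 4 or 5 (-0.33 to -0.31, adjusted p from 0.0502 to 0.0644).

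Both survival genes were lower in unnamed 1. Bcl2 stood at 80.2 ± 14.6 against 114 ± 27.8 CPM (log2 fold change -0.57 ± 0.15, edgeR adjusted p = 0.0201) and Mcl1 at 489 ± 43.9 against 567 ± 66.2 CPM (-0.28 ± 0.08, adjusted p = 0.0480). The Bcl2 call was lost without KO-labelled mouse 1 or 5 or WT-labelled mouse 1, 2 or 6 (-0.56 to -0.48, adjusted p from 0.0512 to 0.0887). The Mcl1 call was lost without KO-labelled mouse 1, 2, 3 or 4 or WT-labelled mouse 1, 2, 4, 5 or 6 (-0.29 to -0.21, adjusted p from 0.0672 to 0.190), and without a filter on low counts (adjusted p = 0.158). Without KO-labelled mice 1 and 2 together, all 4 of these calls were lost (edgeR adjusted p of 0.228 for Fasl, 0.0894 for Cflar, 0.0809 for Bcl2 and 0.154 for Mcl1). In recirculating cells Mcl1 was at -0.19 ± 0.06 and missed the threshold (adjusted p = 0.0534), and it passed with the DESeq2 test (adjusted p = 0.0467) and without KO-labelled mouse 2 (0.0482) or WT-labelled mouse 1 (0.0303) or 6 (0.0403).

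Of all genes tested, 5.48% were called in recirculating cells, where 3 of 6 members were, and 4.65% in unnamed 1, where 3 of 6 were. The share was 2.89% in cytotoxic cells (1 of 6 members), 8.42% in unnamed 3 (3 of 6), 5.09% in Th17 cells (1 of 6), 5.36% in cycling cells (2 of 6) and 0.513% in regulatory cells (0 of the 3 members tested). In regulatory cells 9 genes were called by edgeR, 2 by DESeq2, and 199 had an unadjusted p under 0.05. Cells of KO-labelled mice were shallower in several clusters. The median UMIs per cell of a mouse ran from 2900 to 3250 in KO-labelled and from 3199 to 3420 in WT-labelled mice in recirculating cells, and from 2052 to 2359 and from 2173 to 2535 in unnamed 3. In cycling cells, where the fitted change of Bcl2l11 was 0.92, the depths did not overlap, at 4614.5 to 5119.5 and 5267 to 6007 UMIs. Levels here are relative to each sum's total, and the part of depth in these differences was not tested.

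**Figure D2:**
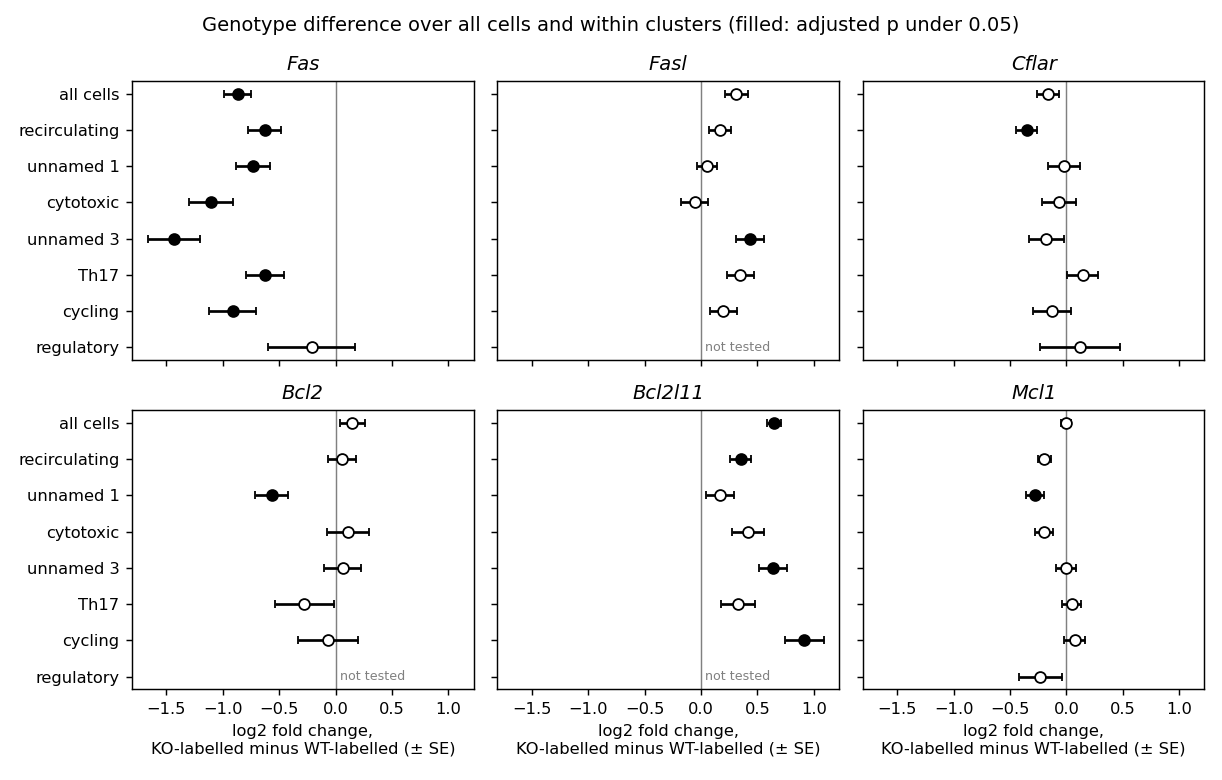
Log2 fold change of each gene (x axis, KO-labelled minus WT-labelled, bars ± SE) over all cells and in each cluster (rows), with filled points for an adjusted p under 0.05. Fas lies left of 0 in every row and Bcl2l11 right of 0 in every row tested. Fasl lies right of 0 in 5 of the 6 clusters tested, and Cflar and Mcl1 lie left of 0 in 5 of 7. Bcl2 lies on each side in 3 of 6 clusters.

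Whether the genotype difference of a member itself differed between clusters was tested within mice with limma, against recirculating cells, and between the 2 unnamed clusters. No member passed in any of the 6 comparisons, with adjusted p of at least 0.241. The share of all genes called was 0% for unnamed 1, cytotoxic, Th17 and cycling cells against recirculating cells, with 453, 546, 486 and 509 genes at an unadjusted p under 0.05. It was 0% for unnamed 1 against unnamed 3, with 319 such genes, and 0.0708% (3 genes) for unnamed 3 against recirculating cells, with 384.

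For Fas the change in unnamed 3 was lower than that in recirculating cells by a log2 difference of -0.50 ± 0.16 (SE, limma adjusted p = 0.332), and in cytotoxic cells by -0.49 ± 0.21 (adjusted p = 0.591). For Bcl2l11 the change in cycling cells exceeded that in recirculating cells by 0.60 ± 0.21 (adjusted p = 0.374). For Cflar the change in Th17 cells lay 0.51 ± 0.12 above that in recirculating cells (adjusted p = 0.241), and for Bcl2 the change in unnamed 1 lay below it, at -0.65 ± 0.20 (adjusted p = 0.420). The calls in single clusters therefore do not show that a member responded in 1 cluster and not in another.

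The members took different levels across clusters, which is given as a description because the clusters were made from these cells. Fasl was lowest in regulatory cells, at 21.2 ± 21.8 CPM in 5 KO-labelled and 81.9 ± 55.8 CPM in 3 WT-labelled mice. It was highest in unnamed 1, unnamed 3 and cytotoxic cells, at 348 to 377 CPM in KO-labelled and 269 to 340.3 CPM in WT-labelled mice. In KO-labelled mice the step from cycling (185 ± 24.8 CPM) to regulatory cells was the step of the Fasl order whose ranges did not overlap, and in WT-labelled mice neighbouring ranges overlapped throughout.

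Bcl2l11 was highest in unnamed 1 in both genotypes (216 ± 31.2 CPM in KO-labelled and 183 ± 43.1 CPM in WT-labelled mice), followed by unnamed 3, Th17, recirculating and cytotoxic cells. The unnamed 1 value exceeded that of unnamed 3 in every KO-labelled mouse and in 5 of the 6 WT-labelled mice, though the ranges overlapped. Cycling and regulatory cells were lowest, with 47.8 ± 15.4 CPM in cycling cells of WT-labelled mice. In the 3 WT-labelled mice with at least 20 regulatory cells, regulatory cells (66.3 ± 10.5 CPM) were each time above cycling cells. Over all WT-labelled mice the ranges overlapped, as cycling cells reached 68.3 CPM and regulatory cells went down to 56.1 CPM.

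Bcl2 and Mcl1 were both low in Th17 and cycling cells and high in unnamed 1. Bcl2 fell from 114 ± 27.8 CPM in unnamed 1 to 35.4 ± 9.81 CPM in cycling cells of WT-labelled mice, and no pair of neighbours in its order was without overlap. Mcl1 stood at 567 ± 66.2 CPM in unnamed 1 and 292 ± 30.8 CPM in cycling cells of WT-labelled mice. The step of Mcl1 from recirculating to Th17 cells did not overlap in either genotype (405 ± 20.2 to 345 ± 18.9 CPM in KO-labelled and 442 ± 35.6 to 325 ± 24.6 CPM in WT-labelled mice).

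Fas had a different order in the 2 genotypes. In WT-labelled mice cytotoxic cells led, at 115 ± 28.4 CPM, and recirculating cells were last, at 66.4 ± 11.7 CPM. In KO-labelled mice regulatory cells led, at 87.6 ± 41.7 CPM, and unnamed 3 was last, at 34.2 ± 13.3 CPM. All neighbouring ranges overlapped in both orders. Cflar ranged from 72.98 to 123 CPM over the clusters of WT-labelled and from 71.9 to 125 CPM over those of KO-labelled mice, with regulatory cells first and cycling cells last in both.

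**Figure D3:**
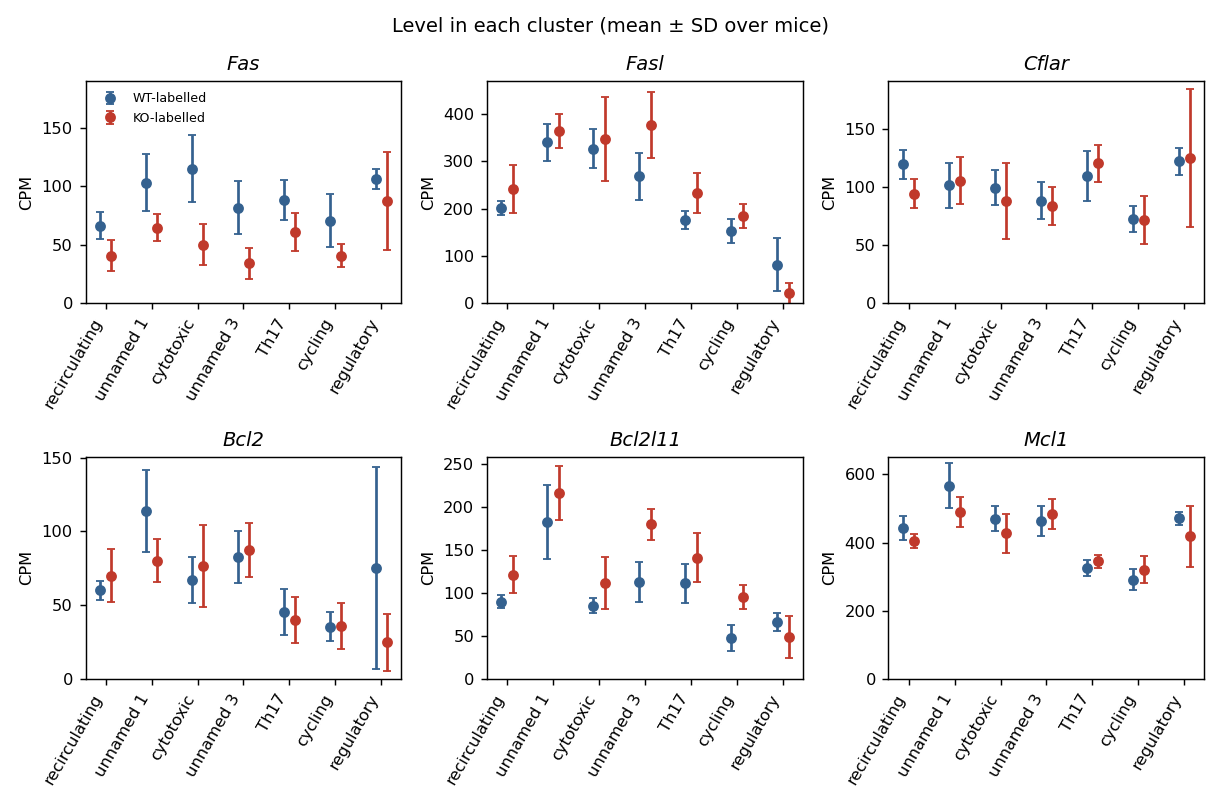
Mean level of each gene in CPM (y axis, from 0) in 7 clusters (x axis) for WT-labelled (blue) and KO-labelled (red) mice, with bars of 1 SD over 6 mice each, or 3 and 5 mice for regulatory cells. Fasl drops to 21.2 and 81.9 CPM in regulatory cells, and Bcl2l11 peaks in unnamed 1.

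Per cell, the members were detected sparsely. Cells were thinned to 1500 UMIs each, and shallower cells (491 KO-labelled, 407 WT-labelled) were left out. A Bcl2l11 UMI was then found in 18.9% ± 1.35 of KO-labelled and 12.2% ± 0.696 of WT-labelled cells (SD over 6 mice each, exact permutation p = 0.00216, the smallest that this design allows). The adjusted p over 9197 genes was 0.0450 by exact permutation, and 4.81% of genes were called. The exact p was the same when cells were thinned to 500 UMIs (7.92% against 4.43%, adjusted p = 0.0607) and without a filter on genes (adjusted p = 0.0520). No gene was called in either setting, and the adjusted p there is the lowest that this smallest p gave. Without thinning the shares were 28.9% and 21.0% (adjusted p = 0.0447).

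A Fas UMI was found in 6.73% ± 1.03 of thinned KO-labelled and 11.7% ± 2.16 of thinned WT-labelled cells (exact permutation p = 0.00649, adjusted p = 0.0735). At 500 UMIs the shares were 2.18% and 4.71% (exact permutation p = 0.00216, adjusted p = 0.0607). In unthinned cells they were 11.6% and 21.5% (adjusted exact p = 0.0447). Fas thus passed only without thinning, where cells keep their unequal depth. For Fasl the thinned shares were 35.9% ± 4.25 and 29.2% ± 1.91 (exact permutation p = 0.00866, adjusted p = 0.0858), and 51.05% and 46.99% without thinning. In regulatory cells, the cluster with the lowest Fasl, 8 of 226 thinned cells (3.54%) had a Fasl UMI in KO-labelled and 10 of 112 (8.93%) in WT-labelled mice. The median depth of a mouse was 2165 to 4109 UMIs per regulatory cell and 2532 to 3165 per cell of unnamed 1, where 41.3% and 37.2% of thinned cells had a Fasl UMI. No cluster is known to lack any of the 6 genes, so the background of free RNA was not measured.

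Mcl1 was found in 45.9% ± 2.01 and 44.8% ± 1.41 of thinned cells (exact permutation p = 0.303, adjusted p = 0.570), Cflar in 13.3% ± 1.90 and 14.1% ± 1.84 (adjusted exact p = 0.694), and Bcl2 in 9.84% ± 1.50 and 8.52% ± 1.25 (adjusted exact p = 0.357). Without thinning the Bcl2 difference turned from 1.32 to -0.30 percentage points and that of Mcl1 from 1.11 to -2.49.

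Clone size was compared within mice. Cells whose clonotype was shared by 5 or more cells of a mouse were compared with cells whose clonotype was seen once, with the mouse as a block over 12 mice. Bcl2l11 was lower in expanded clones in 12 of 12 mice, at 114 ± 24.6 against 142 ± 38.5 CPM (log2 fold change, expanded minus single, -0.34 ± 0.05, edgeR adjusted p = 7.72e-05). Bcl2 was lower as well, at 56.5 ± 9.92 against 75.4 ± 12.9 CPM, and was higher in expanded clones in 1 of 12 mice (-0.44 ± 0.07, adjusted p = 0.000154). Mcl1 was lower at 405 ± 34.8 against 458 ± 36.6 CPM and was higher in 2 of 12 mice (-0.20 ± 0.04, adjusted p = 0.00215).

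Fasl was higher in expanded clones in 10 of 12 mice, at 281 ± 59.5 against 239.9 ± 53.3 CPM (0.20 ± 0.05, edgeR adjusted p = 0.0116). Fas (0.04 ± 0.09, adjusted p = 0.857, higher in 7 of 12 mice) and Cflar (-0.11 ± 0.06, adjusted p = 0.317, higher in 4 of 12) did not pass. Among all genes, 10.2% were called, beside 4 of 6 members. Expanded cells were 26.3% cytotoxic and 14.7% Th17 against 13.5% and 8.88% of single-clone cells, and 12.1% against 18.8% unnamed 3, so the classes also differed in cluster.

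Within recirculating cells alone, Fasl was again higher in expanded clones (253 ± 57.8 against 189.9 ± 52.8 CPM, log2 fold change 0.40 ± 0.08, edgeR adjusted p = 0.00345, higher in 10 of 12 mice), where 3.03% of genes were called. The differences of Bcl2 (-0.40 ± 0.13, adjusted p = 0.0987), Bcl2l11 (-0.29 ± 0.12, adjusted p = 0.240) and Mcl1 (-0.14 ± 0.06, adjusted p = 0.312) did not pass there. Within cytotoxic cells, in 10 mice and with 2.32% of genes called, no member passed. Bcl2l11 turned direction there, at 0.24 ± 0.18 (adjusted p = 0.631), and Fasl was at 0.23 ± 0.10 (adjusted p = 0.285).

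**Figure D4:**
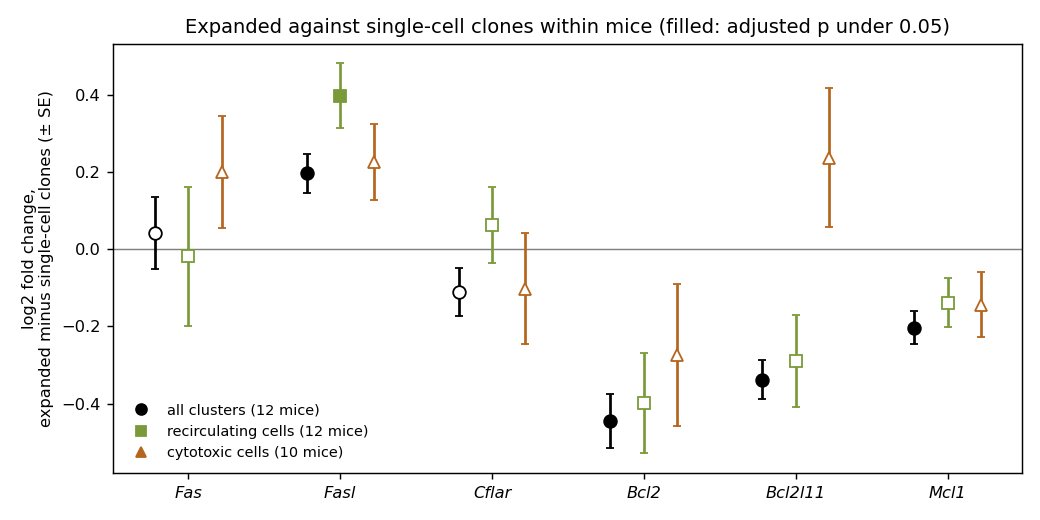
Log2 fold change of each gene between expanded and single-cell clones of the same mice (y axis, bars ± SE) in all clusters, in recirculating cells and in cytotoxic cells, with filled symbols for an adjusted p under 0.05. Fasl lies above 0 in all 3 sets, Bcl2 and Mcl1 lie below it, and Bcl2l11 changes side in cytotoxic cells.

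The wider pathway was read through 69 genes in 7 roles, of which 66 were in the table and 62 were tested over all cells. Of the 62, 6 were higher and 10 lower in KO-labelled mice, beside 7.04% higher and 7.21% lower of all genes tested. The list's median log2 fold change was -0.01 against -0.00022 over all genes. Leaving out the members, 5 of 56 were higher and 9 lower. Among death receptors and ligands 1 of 9 was higher and 3 were lower, Fas among them. Tnfrsf10b, the receptor for the ligand TRAIL, rose from 6.40 ± 1.59 to 21.05 ± 8.94 CPM (SD, n = 6 each, log2 fold change 1.67 ± 0.27, edgeR adjusted p = 0.000708). With clusters weighted alike it was at 1.05, and it passed in neither of the 2 clusters where it was tested, recirculating cells (0.85, adjusted p = 0.113) and unnamed 1 (0.65, adjusted p = 0.323). Tnfrsf25, the receptor of the cytokine TL1A, was lower, at 39.4 ± 9.73 against 64.3 ± 12.02 CPM (-0.74 ± 0.15, adjusted p = 0.0042), and in 3 clusters, and so was the cytokine gene Lta (-0.73 ± 0.22, adjusted p = 0.0389), which fell in 2 clusters.

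In the receptor complex and its inhibitors, which hold Cflar, 1 of 13 was higher and 1 lower. Traf1, an adaptor of TNF receptors, was at 0.24 ± 0.06 on the log2 scale (edgeR adjusted p = 0.0123) and Birc2, an inhibitor of apoptosis protein, at -0.31 ± 0.06 (adjusted p = 0.00228). Birc2 was lower in 3 clusters. Traf1 was higher in 1 of 7 clusters, and with clusters weighted alike it was at 0.06 and did not pass (adjusted p = 0.47). Casp8 and Fadd were among the 11 that did not pass.

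In the anti-apoptotic BCL2 family, 2 of 6 were higher and 2 lower, with Bcl2 and Mcl1 the 2 that did not pass. Bcl2l1, which encodes BCL-XL, rose from 31.6 ± 3.32 to 61.7 ± 9.79 CPM (log2 fold change 0.92 ± 0.10, edgeR adjusted p = 3e-05) and was also called higher in Th17 and cycling cells. With clusters weighted alike its log2 fold change was 0.46 (adjusted p = 0.00102), and in unnamed 1 it was 0.09 ± 0.12 (adjusted p = 0.80). The 3 copies of the A1 gene moved apart: Bcl2a1a fell by 1.47 ± 0.18 on the log2 scale (adjusted p = 5.69e-05), Bcl2a1b fell by 0.21 ± 0.06 (adjusted p = 0.0169) and Bcl2a1d rose by 0.35 ± 0.06 (adjusted p = 0.00134). These copies are nearly identical, so the counting could split their reads, and their single values are uncertain. With clusters weighted alike Bcl2a1b was at -0.37 and Bcl2a1d at 0.19.

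Among BH3-only genes, the killer class to which Bcl2l11 belongs, 1 of 7 was higher and 2 were lower. Bcl2l11 was the one that rose, whereas Bbc3, which encodes PUMA, was lower (15.9 ± 1.30 against 24.1 ± 7.18 CPM, log2 fold change -0.64 ± 0.15, edgeR adjusted p = 0.0101), and so was Bik (-0.91 ± 0.17, adjusted p = 0.00186). Neither pore former tested passed. In the execution phase 1 of 13 passed, Apaf1, the scaffold of the apoptosome, at -0.28 ± 0.06 (adjusted p = 0.00881), and it was lower in 3 clusters.

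Among regulators of the members, Foxo3, a transcription factor known to act on Bcl2l11, was higher (log2 fold change 0.29 ± 0.09, edgeR adjusted p = 0.0484) and Stat5a, which carries the signal of survival cytokines, was lower (-0.28 ± 0.09, adjusted p = 0.0400), with 10 of 12 not passing. Neither passed in any of the 6 clusters where it was tested, and with clusters weighted alike the Foxo3 call was lost (0.25, adjusted p = 0.157). Pim1, a kinase induced by cytokines, was called in 3 clusters and in both directions: lower in unnamed 3 (-0.35 ± 0.09, adjusted p = 0.0145) and higher in Th17 (0.29 ± 0.07, adjusted p = 0.00755) and cycling cells (0.35 ± 0.07, adjusted p = 0.0020).

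**Figure D5:**
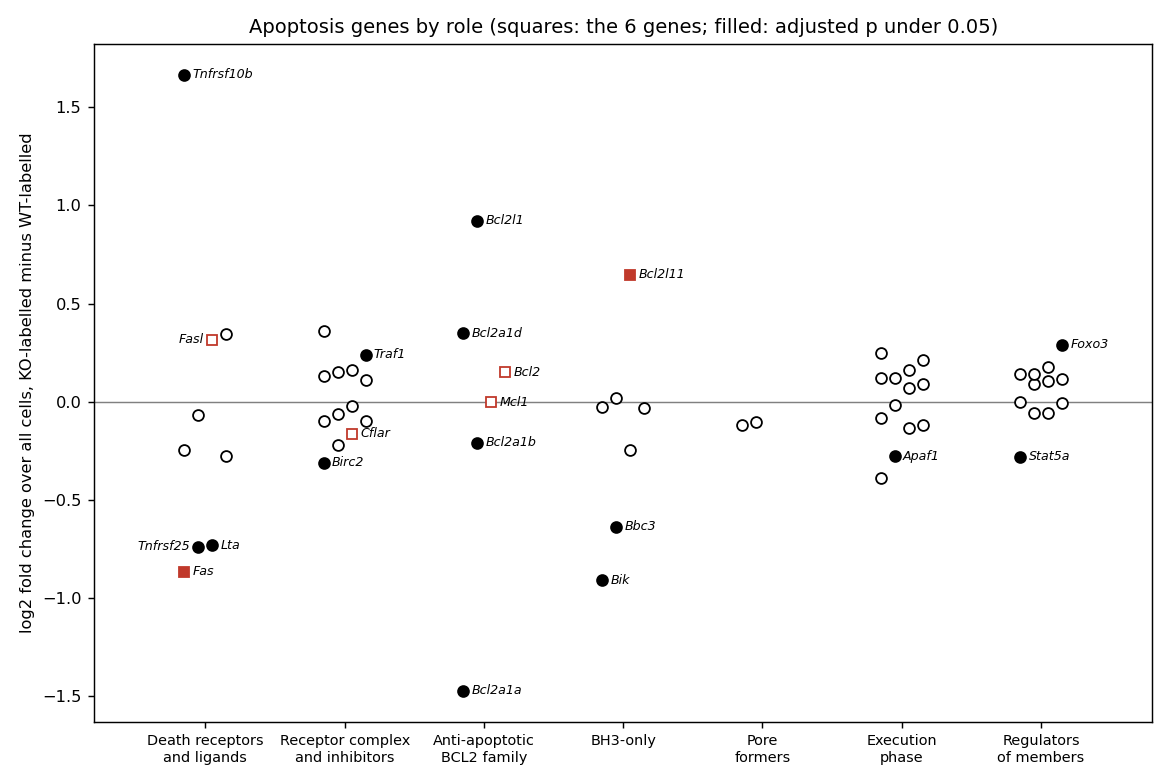
Log2 fold change over all cells (y axis, KO-labelled minus WT-labelled) of 62 tested apoptosis genes grouped by role (x axis), with squares for the 6 members and filled symbols for an adjusted p under 0.05. Within the BH3-only group Bcl2l11 lies at 0.65 and Bik at -0.91, and most of the other genes lie near 0.

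Across 80 sums of a mouse and cluster, the genes most like a member were found by Pearson's correlation of log2 CPM among 5849 genes whose log2 CPM averaged 4 or more. These sums share 1 library, 12 mice and the split into clusters, so the values are descriptions. Fasl was closest to Apol7e (r = 0.89) and Mctp2 (r = 0.88), and Zcchc11 was among the 2 genes closest to Bcl2l11 (r = 0.80). Mcl1 was closest to Gimap6 (r = 0.77) and Il7r (r = 0.76), and Il7r was among the 2 closest to Bcl2 (r = 0.70). Fas was closest to Csf1 (r = 0.62) and Adam9 (r = 0.61), and Cflar to Jak1 (r = 0.63) and Pld3 (r = 0.61). Among the members themselves, Fasl ran with Bcl2 (r = 0.70) and Bcl2l11 (r = 0.69), and Fas ran with none of Fasl (r = -0.0021), Bcl2l11 (r = -0.0055) and Bcl2 (r = 0.07), while its highest value was with Cflar (r = 0.47).

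On GRCm38, Fas lies on chromosome 19 from 34290666 to 34327772 and Bcl2l11 on chromosome 2 from 128126038 to 128162547, both on the plus strand. Fasl (161780689 to 161788495, minus strand), Cflar (58711508 to 58758884, plus strand) and Bcl2 (106538178 to 106714274, minus strand) lie on chromosome 1, and Mcl1 on chromosome 3 from 95658788 to 95663176, plus strand. Bcl2 overlaps the antisense gene D630008O14Rik, which had 20 UMIs beside 3739 for Bcl2. The sources used here do not say whether counting used strand.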

How the data were processed

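The submitters' processing notes name Cell Ranger 3.1.0, Seurat 3.1.5 and the builds GRCm38 and mm10. The deposited table holds unnormalized UMI counts of 11971 genes by 18860 cells, beside an annotation of each cell's mouse, genotype, cluster and clonotype. That deposited annotation gives the mitochondrial percent of UMIs per cell and a doublet score of at most 0.354; no doublet caller was run here. How cells were filtered is not stated, and the lowest number of genes in a cell was 501. Cell totals matched the deposited ones, and with 1 library no barcode is shared between libraries.

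The mouse was the replicate. Nothing in the labels ties mice of the genotypes to shared donors, and the p-values set differences against the spread between these recipient mice. As the number of donors is not stated, they cannot be taken to cover the spread between donors. UMIs were summed per mouse, or per mouse and cluster (mice with at least 20 cells), and fitted by the quasi-likelihood method of edgeR 4.0.16 (R 4.3.3), with TMM scaling and filterByExpr. A gene was called at a Benjamini-Hochberg adjusted p under 0.05 over all genes tested. Standard errors are the log2 fold change over the root of F, without sign. CPM values use plain totals, so their ratio can differ slightly from the fitted fold change. Differences between clusters were tested with limma 3.58.1 on log2 CPM with a prior count of 2. Shares of cells with a UMI used exact two-sided permutation tests over all assignments of 12 mice. The genotype fit, the test of differences between clusters and the permutation test were tried on simulated data.

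The members and lists were chosen with earlier results of these data known. The named genes were the members, the listed pathway genes called over all cells or in at least 2 clusters, and the 2 genes most correlated with each member, some of which are not reported here; Casp8 and Fadd were named after their values were seen. All 6 members matched RefSeq promoters (GRCm38.p6). Alternatives were DESeq2 size factors and the DESeq2 1.42.0 test, no filter, equal cells per mouse (1409), clusters weighted alike, no cycling cells, at least 50 cells per mouse, each mouse left out, KO-labelled mice 1 and 2 left out, a prior count of 0.5, no TMM or trend, other thinning and other clone classes.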

Additional observations from a re-analysis of the deposited data

Results flagged for a closer look

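Dixon's test at the 95% level was applied to each member, genotype and cluster with 4 to 10 mice. It marked 5 of 90 groups, and chance marks about 1 in 20. Over all cells, Fas in WT-labelled mouse 6 was at 59.8 CPM, below the other 5 WT-labelled mice at 88.8 to 98.7 CPM. In Th17 cells, Fas in KO-labelled mouse 2 was at 94.1 CPM, above the other 5 at 50.4 to 59.6 CPM. Also in Th17 cells, Bcl2 in WT-labelled mouse 5 was at 76.9 CPM, above the others at 36.4 to 43.8 CPM. In cycling cells, Bcl2 in WT-labelled mouse 1 was at 15.6 CPM, below the others at 36.4 to 41.8 CPM. In regulatory cells, Mcl1 in KO-labelled mouse 4 was at 577 CPM, above the other 4 at 354 to 396 CPM.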

How the results depend on the processing

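Fas and Bcl2l11 over all cells kept direction and call under all 19 alternatives (log2 fold change -0.96 to -0.74 and 0.37 to 0.68). Over all members, clusters and comparisons, values that passed kept their call in 214 of the alternatives and their direction but not the call in 51, and 1 reversed; values that did not pass reversed in 41 and passed in 12. The cause was not tested.

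Over all cells Fasl passed with the DESeq2 test (0.32) and without cycling cells (0.32), and ranged from 0.24 to 0.40 with 1 mouse left out. Bcl2 was at -0.11 with clusters weighted alike and 0.11 to 0.24 with 1 mouse left out. Mcl1 was at -0.13 with clusters weighted alike, 0.0012 without a filter and -0.034 to 0.016 with 1 mouse left out. Without KO-labelled mice 1 and 2, 770 genes were called over all cells, 175 in unnamed 1, 203 in unnamed 3, 176 in cycling and 0 in regulatory cells, from 1405, 276, 357, 288 and 9. Without a filter on low counts 307 genes were called in cytotoxic cells, from 191, and 44 in regulatory cells, where the DESeq2 test called 2 and leaving out 1 mouse gave 0 to 12. Genes called between clone classes numbered 180 in recirculating and 83 in cytotoxic cells, from 897. Genes called by share of cells with a UMI numbered 0 at 500 UMIs and 0 without a filter on genes, from 442; there the smallest p of the exact test gave adjusted values of 0.0607 and 0.0520.

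Members that did not pass turned direction as follows. Without KO-labelled mice 1 and 2, Bcl2 was at -0.043 in recirculating cells and -0.087 in unnamed 3, Fasl at -0.011 in unnamed 1, Cflar at 0.11 in unnamed 1, 0.068 in cytotoxic and -0.16 in regulatory cells, and Mcl1 at 0.034 in unnamed 3. Without a filter, Cflar was at 0.029 in unnamed 1, and Mcl1 at 0.033 in unnamed 3 and -0.011 in Th17 cells. With 1 mouse left out, Bcl2 ran from -0.016 to 0.14 in recirculating cells, -0.027 to 0.18 in unnamed 3, -0.48 to 0.0030 in Th17 and -0.32 to 0.16 in cycling cells. Cflar ran from -0.090 to 0.090 in unnamed 1, -0.13 to 0.0028 in cytotoxic, -0.21 to 0.0037 in cycling and -0.0079 to 0.28 in regulatory cells. Fasl ran from -0.14 to 0.043 in cytotoxic cells and Mcl1 from -0.048 to 0.036 in unnamed 3. Between clone classes, Fas was at -0.018 and Cflar at 0.062 in recirculating cells, and Bcl2l11, which had passed, at 0.24 in cytotoxic cells. Without thinning the shares of Bcl2 and Mcl1 differed by -0.30 and -2.49 percentage points.

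No paired analysis was possible because the labels do not tie mice across genotypes. Mouse numbers here give the order of the hashtag numbers within a genotype and are not the hashtag numbers themselves. Depth limits regulatory cells most, with 15 to 258 UMIs per member and genotype, and missing the threshold there does not show that a member is alike in the genotypes.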

Other observations

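Some genes of the pathway list not described above passed the edgeR test in single clusters; whether their change differed between clusters is not given here. In cycling cells Tnfrsf1b, the second TNF receptor, stood at 173 ± 45.6 CPM in KO-labelled and 91.6 ± 11.6 CPM in WT-labelled mice (SD, n = 6 each, log2 fold change 0.84 ± 0.16, adjusted p = 0.0011). Tnfaip3, which encodes the NF-kB inhibitor A20, was also higher (0.33 ± 0.07, adjusted p = 0.0030), and Pmaip1, which encodes the BH3-only protein NOXA, was lower (-0.60 ± 0.14, adjusted p = 0.0124). In recirculating cells the kinase gene Pim2 was lower (-0.46 ± 0.13, adjusted p = 0.0360). In regulatory cells Il7r, the receptor chain for interleukin 7, was at 466 ± 87.6 CPM in 5 KO-labelled and 875 ± 136 CPM in 3 WT-labelled mice (-0.96 ± 0.19, adjusted p = 0.0296). The Il7r call was lost without KO-labelled mouse 1 and without KO-labelled mice 1 and 2 together, where no gene was called in regulatory cells. The genes in this section were named after their values were seen.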
